A study of Mus musculus with 10 samples.

Results

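The data described here are the transcriptomes of wild-type mouse heart ventricle at 2 weeks of age, measured in 2 mRNA libraries labelled replicate 1 and replicate 2. They are 2 of the 10 samples of a study of Trbp, an RNA-binding partner of Dicer, in C57BL/6 mice, which also holds 2 mRNA libraries of Trbp-cKO hearts of the same age and 6 small RNA libraries, none of which was compared here. The labels name no allele, Cre driver, sex or pooling for the wild-type mice, and do not say that the replicates came from separate animals. An SD therefore measures only the spread between these libraries, which also differed in Y-linked genes and Xist, as given below. The submitters froze the ventricles, isolated total RNA in Trizol and prepared each library with the Illumina TruSeq RNA kit. The deposited table counts reads for 30635 RefSeq transcripts. Each gene is represented by its transcript with the highest wild-type total, and the 23334 genes obtained in this way are described. The counts of the kept genes came to 13092691 in replicate 1 and 10135823 in replicate 2. Levels are counts scaled to a total of 1000000 per library (CPM), given as mean ± SD over the 2 libraries. There is 1 group and no comparison of conditions, so no test was run.

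The ventricle is a pump of contracting cardiomyocytes among endothelial cells, fibroblasts, pericytes, smooth muscle and blood cells. In its cardiomyocytes, thin filaments of actin, tropomyosin and troponin slide past thick filaments of myosin, driven by ATP from mitochondria and switched by calcium that the sarcoplasmic reticulum releases and takes back. Around birth and in the weeks after it, the mouse heart exchanges many fetal isoforms for adult ones and turns from glucose and lactate to fatty acids as its main fuel. Counts rise with transcript length as well as with the number of molecules, and no transcript lengths were used here. Every comparison between genes below is therefore one of counts, not of molecules. In bulk tissue, fewer cells of a type and less RNA per cell cannot be told apart.

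Of the 23334 genes, 17030 had a count in at least 1 library and 6304 had none in either. A mean of at least 1 CPM was reached by 13226 genes (56.7%), at least 100 CPM by 1880, at least 1000 CPM by 85 and at least 10000 CPM by 5. The median of the genes at 1 CPM or more was 24.7 CPM. Counts were concentrated in few genes. The 10 highest genes held 13.0% of counts in replicate 1 (Wilson 95% interval 13.01% to 13.05%) and 13.0% in replicate 2 (12.93% to 12.98%), the 100 highest held 28.2% ± 0.0131 and the 1000 highest 58.1% ± 0.0726. Intervals cover counting error only. When all transcript rows of a gene were summed, the 10 highest genes held 22.3%, and 17 of the 30 highest were shared with the ranking used here. In replicate 1, 597 genes held 50% of the counts, and in replicate 2, 599 did. A count of 0 allows a level of up to 0.229 CPM in replicate 1 and 0.296 CPM in replicate 2, the value of 3 counts.

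The 5 genes above 10000 CPM are all genes of the contracting cell. Myh6, the fast cardiac myosin heavy chain, led with 440052 counts in replicate 1 and 340868 in replicate 2, or 33620 ± 13.8 CPM. Actc1, cardiac actin, followed with 248582 and 195342 counts (19129 ± 202 CPM). Atp2a2, the pump that returns calcium to the sarcoplasmic reticulum, had 194598 and 150300 counts (14846 ± 24.4 CPM). Mb, the oxygen store myoglobin, stood at 11768 CPM and Tpm1, tropomyosin, at 11227 CPM. In RefSeq (GRCm38.p6) Myh6 spans chr14:54941921-54968017, Actc1 chr2:114047282-114052875 and Atp2a2 chr5:122453513-122502225, all protein-coding. The Myh6 span overlaps Cmtm5 and the microRNA gene Mir208a. These 5 genes had the same order in both libraries, and the 30 highest genes were the same 30 in each. The next members down to rank 14 were the giant elastic protein titin (Ttn, 9872 ± 399 CPM), the pump inhibitor phospholamban (Pln, 8043 ± 142 CPM), the ATP synthase subunits Atp5b (7597 ± 114 CPM) and Atp5a1 (6129 ± 55.6 CPM), the ADP/ATP exchanger Slc25a4 (7094 ± 122 CPM), and the sarcomere genes Myl3, Tnnt2, Mybpc3 and Myl2, which lay between 4594 and 6739 CPM. Among ranks 15 to 30 were enzymes of the citric acid cycle (Ogdh, Cs), cytosolic malate dehydrogenase (Mdh1), both muscle creatine kinases (Ckm, Ckmt2), lipoprotein lipase (Lpl), calcium release and store proteins (Ryr2, Srl), Z-disc and sarcomere-associated genes (Tnni3, Actn2, Fhl2, Pde4dip), the small heat shock protein gene Hspb7, the matrix protein gene Sparc and the ATP synthase subunit Atp5g3. Sparc, mainly a product of non-muscle cells, was the only matrix gene among the 30. Of the 100 highest genes, 68 belonged to at least 1 of the listed functional groups.

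**Figure D1:**
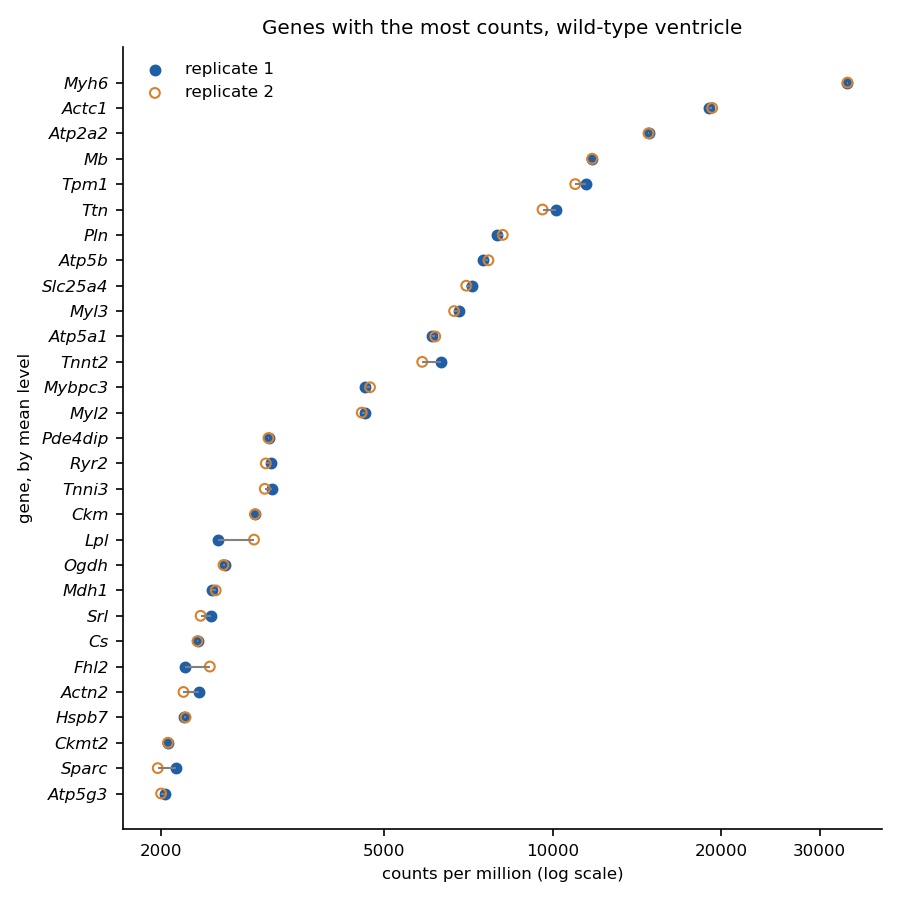
Level in CPM (log axis) of 29 of the 30 genes with the most counts in wild-type ventricle, ordered by mean, with 1 point for each of the 2 libraries joined by a line. Myh6 stands first at 33620 CPM, Actc1 and Atp2a2 follow, and the libraries overlap closely for most genes, with a visible gap for Lpl.

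Myosin and actin each have a close relative in the fetal or skeletal programme, and the sequence before the annotated start is shown for both pairs because their counts differed so widely. Windows of 250 bases before to 50 after the start were taken from RefSeq (GRCm38.p6), 5′ to 3′ on the gene's minus strand, with matches to TATAAA, to CATTCC (the MCAT element) and to the CArG box in capitals, searched on both strands. Myh6 lies at chr14:54966558-54966857, Myh7 at chr14:54994500-54994799 (the more downstream of its 2 windows), Actc1 at chr2:114052826-114053125 and Acta1 at chr8:123894726-123895025. The Myh6 window lies inside the Myh6 span given above, which ends at 54968017. Its start is therefore an annotated start within that span, not the upstream end of the span.
Myh6: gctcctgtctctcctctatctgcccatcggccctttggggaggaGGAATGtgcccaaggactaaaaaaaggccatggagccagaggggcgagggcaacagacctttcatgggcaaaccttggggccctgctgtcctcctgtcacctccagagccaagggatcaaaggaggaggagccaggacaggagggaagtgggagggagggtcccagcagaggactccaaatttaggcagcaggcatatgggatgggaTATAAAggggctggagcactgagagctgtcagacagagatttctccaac
Myh7: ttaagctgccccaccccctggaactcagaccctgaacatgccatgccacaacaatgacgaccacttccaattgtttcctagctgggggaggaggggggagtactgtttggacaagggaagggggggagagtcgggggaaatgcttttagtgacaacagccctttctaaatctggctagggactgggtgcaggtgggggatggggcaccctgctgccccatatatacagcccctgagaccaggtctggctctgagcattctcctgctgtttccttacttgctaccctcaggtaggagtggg
Actc1: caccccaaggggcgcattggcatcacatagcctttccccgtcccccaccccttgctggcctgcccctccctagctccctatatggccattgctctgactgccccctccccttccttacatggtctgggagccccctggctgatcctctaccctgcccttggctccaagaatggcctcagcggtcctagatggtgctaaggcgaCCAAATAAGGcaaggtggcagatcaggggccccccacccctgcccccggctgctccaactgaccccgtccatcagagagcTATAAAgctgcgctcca
Acta1: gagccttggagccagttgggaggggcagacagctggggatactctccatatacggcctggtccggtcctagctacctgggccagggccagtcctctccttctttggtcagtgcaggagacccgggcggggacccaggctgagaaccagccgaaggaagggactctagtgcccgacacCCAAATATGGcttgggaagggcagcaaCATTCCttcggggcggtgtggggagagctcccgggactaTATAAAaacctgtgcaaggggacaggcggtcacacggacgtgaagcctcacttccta

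The Myh6 window held TATAAA from base 2 after the start and CATTCC on the other strand, read as GGAATG from base -206. The Actc1 window held a CArG box from base -47 and TATAAA from base 34. In Acta1 a CArG box began at base -73, CATTCC at -46 and TATAAA at -7. The Myh7 window printed held none of the 3 motifs. No motif overlapped another in these windows, although a CArG box can hold TATAAA inside it, as in 15 genes of the whole table. Over all 27025 genes with a window, 15.7% held TATAAA, 16.6% CATTCC and 1.81% a CArG box. Windows existed for 25 of the 30 listed sarcomere genes, of which 5 (20%) held TATAAA, 11 (44%) CATTCC and 6 (24%) a CArG box, the last being Actc1, Acta1, Myl3, Myom1, Ldb3 and Nebl. Myh7 counts among the 11 through its other window. These are letter matches, not binding sites.

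Sarcomere genes took 11.9% of the counts of replicate 1 (95% interval 11.9% to 11.93%) and 11.8% of replicate 2 (11.77% to 11.81%), and all 30 listed members reached 1 CPM. Within most of their families the cardiac member dominated. Myh6 held 97.9% ± 0.0203 of the counts of 9 myosin heavy chain genes. Myh7, the slow heavy chain of the fetal ventricle, had 7194 counts in replicate 1 and 5365 in replicate 2, so that Myh6 counts were 61.2 and 63.5 times as many. Myh7b, a slow-type relative, had 2471 and 2020 counts. The skeletal and embryonic heavy chains were at or near 0, with 5 and 3 counts for Myh1, 1 and 2 for Myh3, 1 and 0 for Myh2, and none for Myh4, Myh8 or Myh13. Both libraries gave the same order for the leading 3.

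Among the actins, Actc1 held 92.8% ± 1.54, smooth muscle actin Acta2 5.46% and skeletal actin Acta1 1.73%. Acta1, which the fetal and stressed heart uses, had 3362 counts in replicate 1 and 4659 in the shallower replicate 2, a level 1.79 times higher in replicate 2. The troponin subunits were almost wholly cardiac. Tnni3, the adult inhibitory subunit, had 41243 and 31007 counts, against 154 and 74 for Tnni1, the slow skeletal form that the fetal heart expresses, a ratio of 268 in replicate 1 and 419 in replicate 2. The cardiac tropomyosin-binding subunit Tnnt2 had 82855 and 59258 counts against 168 and 174 for Tnnt1. The calcium-binding subunit Tnnc1 had 26137 and 19228 counts against 2 and 1 for its fast skeletal relative Tnnc2. In counts, both libraries therefore lay far on the side of the cardiac forms, and for troponin I on the side of the adult form. The comparisons of Tnnt2 and Tnnc1 are with skeletal relatives and do not separate fetal from adult.

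The light chains were those of the ventricle. Myl3, the ventricular essential light chain, held 99.7% ± 0.0510 of its family, with 27 and 43 counts for the atrial form Myl4. Myl2, the ventricular regulatory light chain, held 96.5% ± 0.570, with 1 and 2 counts for the atrial form Myl7 and 1925 and 1865 for Myl9, a smooth muscle and non-muscle form. Tpm1 held 98.1% of the tropomyosins, Mybpc3 99.4% of the myosin-binding proteins C and Myoz2 99.9% of the calsarcins, small proteins of the Z-disc. Actn2, the muscle alpha-actinin, held 86.9% ± 0.949, most of the rest being the non-muscle form Actn4. The M-band was the exception, with counts split between Myom1 (26208 and 19258) and Myom2 (15420 and 11021), at a ratio of 1.70 in replicate 1 and 1.75 in replicate 2. With all rows of a gene summed, the share of Myom1 went from 63.2% to 77.4%. Other genes of the sarcomere's scaffold were high as well, among them desmin (Des, 1776 ± 135 CPM) and Ldb3 (1252 ± 5.54 CPM). Des was chosen for naming after its values were seen.

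Calcium handling genes summed to 35413 ± 205 CPM, and 19 of the 20 listed members reached 1 CPM. Each step had 1 dominant gene. Atp2a2 held 99.8% of the pump family, its nearest relative Atp2a3 having 402 and 316 counts and the fast skeletal pump Atp2a1 14 and 10. Ryr2, the cardiac release channel, had 41119 and 31140 counts, against 22 and 21 for Ryr3 and 2 and 2 for the skeletal Ryr1. Pln had 103986 and 82534 counts, while sarcolipin (Sln), the pump inhibitor of atrium and skeletal muscle, had 0 in both libraries. Counted against 3 counts per library, Pln was at least 34662-fold higher in replicate 1 and at least 27511-fold in replicate 2. Cardiac calsequestrin, Casq2, which binds calcium in the store, held 96.9% ± 0.534 against 3.15% for the skeletal Casq1. Slc8a1, the exchanger that exports calcium for sodium, held 99.7% of its family.

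Several transcripts of a gene often carried nearly the same counts in the deposited table, so isoforms made from the same gene could be told apart only in part. Of 2510 genes with several rows and at least 100 counts in replicate 1, 71.1% had a lowest row of at least 90% of the highest. All 9 rows of Tnnt2 lay between 98.9% and 100% of the highest in replicate 1. Tpm1 was different: its 10 rows ran from 64346 to 150331 counts in replicate 1 and from 46822 to 111207 in replicate 2, or from 42.8% and 42.1% of the highest row upwards. For Atp2a2, transcript NM_001110140 had 78.3% of the counts of the highest row in replicate 1 and 78.2% in replicate 2, and NM_009722 had 98.1% and 98.3%. The order and spacing of these rows were close to equal in both libraries.

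Energy metabolism was the other large block. The 49 listed nuclear-encoded subunits of the respiratory chain and ATP synthase summed to 42634 ± 573 CPM, all of them at 1 CPM or more, with a median of 573 CPM. The highest were Atp5b, Atp5a1, Atp5g3 (2011 ± 20.1 CPM) and the succinate dehydrogenase subunit Sdha (1837 ± 1.21 CPM). The 19 citric acid cycle genes summed to 21959 ± 103 CPM, the 25 fatty acid genes to 21136 ± 406 CPM, and the 19 genes of glucose uptake and glycolysis to 9187 ± 166 CPM. The last sum holds only 2.31 CPM for Gapdh, whose count is uncertain. All members of these lists reached 1 CPM, and Sdha and Sdhb belong to both the respiratory and the citric acid cycle list. Fatty acid genes were led by Lpl (2725 ± 285 CPM), which frees fatty acids from lipoproteins, the transporter Cd36 (1760 ± 19.1 CPM), and the oxidation enzymes Hadha (1753 ± 18.7 CPM) and Acadl (1346 ± 19.1 CPM). Creatine kinase and nucleotide exchange genes summed to 16370 ± 75.8 CPM, of which Slc25a4 gave the largest share, and Ckm and Ckmt2 had 2938 and 2053 CPM.

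Where a subunit or enzyme comes in a muscle form and a general form, the muscle form usually had more counts. Cox6a2 held 87.3% ± 0.426 against 12.7% for Cox6a1, and Cox8b 78.1% ± 2.83 against 21.9% for Cox8a. Cox7a1 held 46.5% ± 0.850, ahead of Cox7a2 at 34.2% and Cox7a2l at 19.4%. With all rows of a gene summed, Cox7a1 held 39.0% and still led. Slc2a4, the insulin-responsive glucose transporter, had 4234 and 3199 counts, and Slc2a1, the fetal transporter, 96 and 82, so the ratio was 44.1 in replicate 1 and 39.0 in replicate 2. Eno3, the muscle enolase, held 97.6% ± 0.524 and Pgam2, the muscle phosphoglycerate mutase, 99.4% ± 0.154. Reads of Eno1 and Pgam1 were few (549 and 283, 43 and 45), and the fate of reads with several matches, which bears on both, is not given in the sources used here. Pfkm held 77.8% ± 1.70 of the phosphofructokinases, and 91.3% with all rows of a gene summed. Cpt1b, the muscle carnitine palmitoyltransferase that admits fatty acids to mitochondria, had 11084 and 8794 counts, and the liver form Cpt1a 1597 and 971, a ratio of 6.94 and 9.06. Cpt1b overlaps the read-through gene Chkb-Cpt1b, and Eno3 overlaps Pfn1.

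In other metabolic families the size of the lead varied. Hk2, the insulin-regulated hexokinase, had 4708 and 3623 counts and Hk1 2719 and 2483, a lead of 1.73 and 1.46 that turned into a lead of Hk1 when all transcript rows of a gene were summed (54.1% of the family). Ldhb, the heart lactate dehydrogenase, had 11549 and 9186 counts and Ldha 7671 and 6527, again with Ldha ahead (57.5%) when rows were summed. Pdk4, the kinase that shuts pyruvate out of the citric acid cycle when fat is burned, was the least even between libraries, with 14377 counts in replicate 1 and 5987 in replicate 2. It held 66.4% of the pyruvate dehydrogenase kinases in replicate 1 and 50.3% in replicate 2 and led Pdk2 in both. Acacb, the muscle acetyl-CoA carboxylase, had 6686 and 4485 counts against 71 and 42 for the lipogenic Acaca. Among the regulators of these genes, Ppara held 73.8% ± 0.373 of the PPARs and Esrra 67.1% ± 0.438 of the estrogen-related receptors. Ppargc1a held 78.5% of the PGC-1 coactivators in replicate 1 and 72.2% in replicate 2. With all rows of a gene summed, Ppara held 82.6%, Esrra 50.7% and Ppargc1a 85.9%.

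**Figure D2:**
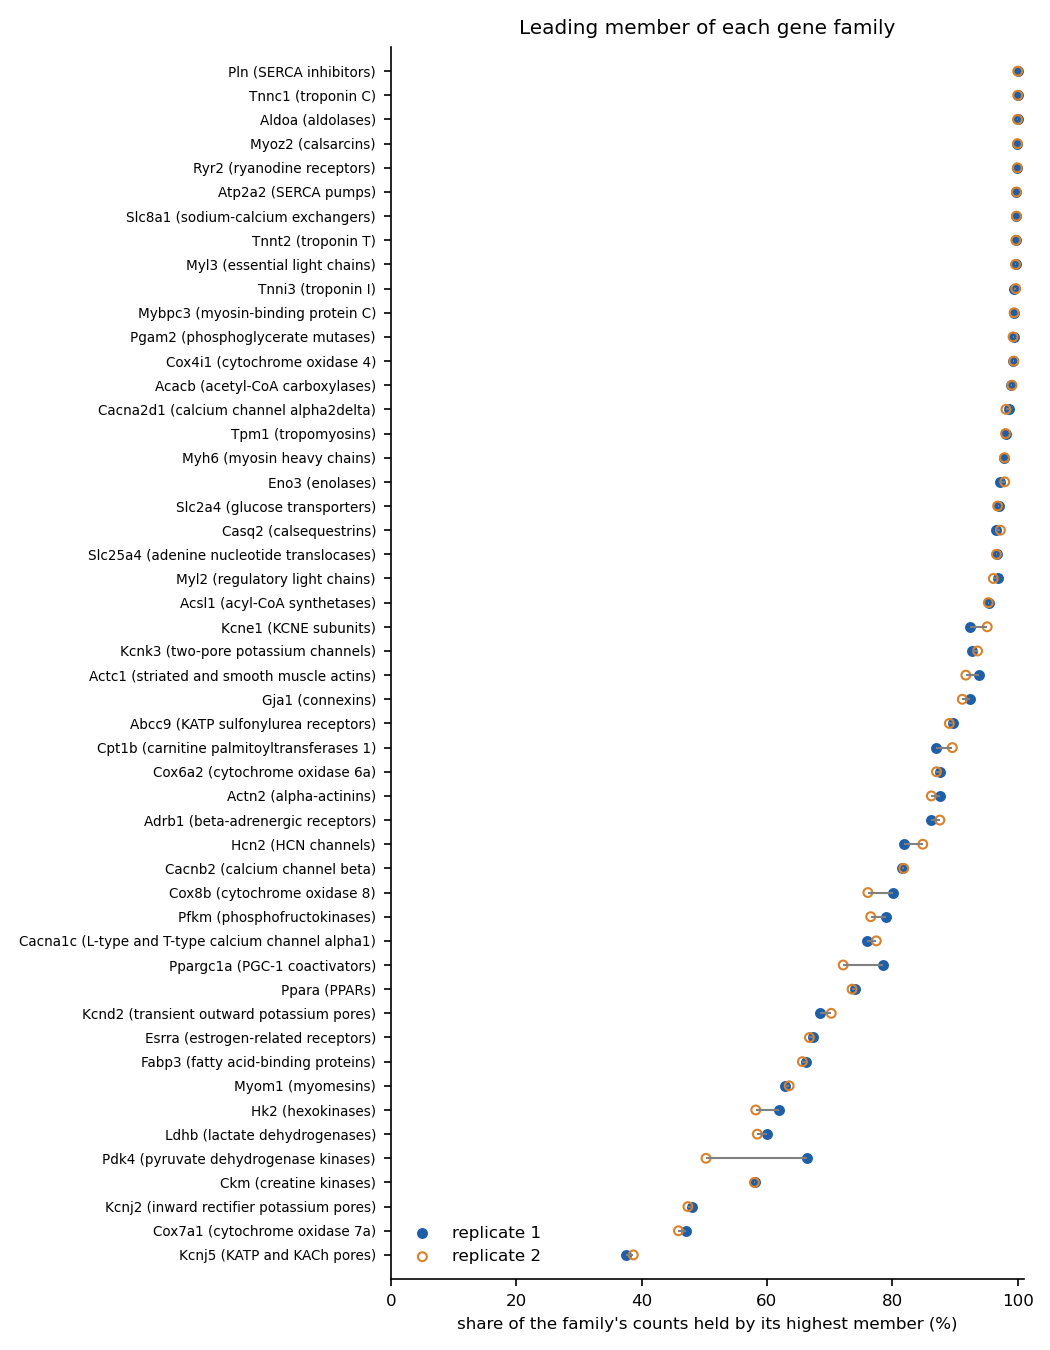
Share of a family's counts (percent, linear axis from 0 to 100) held by its leading member in 50 of 54 gene families, with 1 point per library. Most sarcomere and calcium families lie at the right edge, Kcnj5 and Cox7a1 at the lower left, and Pdk4 has the widest gap between libraries.

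Over all 54 families, the leading member was the same in both libraries. The leader held at least 90% of counts in both libraries in 27 families, at least 99% in 13, and less than 70% in a library in 14. When all rows of a gene were summed, 50 families kept their leader, and the other 4 (hexokinases, lactate dehydrogenases, inward rectifier pores, and KATP and KACh pores) did not.

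Ion channel genes carry the heart's electrical activity. Among the sodium channel genes, the pore Scn7a had 545 and 383 counts, the skeletal muscle pore Scn4a 371 and 279, and the beta subunit Scn4b 36 and 100, which put Scn4b higher in replicate 2 in counts as well as in CPM. Cacna1c, the L-type calcium pore that triggers release, had 4969 and 3708 counts and held 76.7% ± 1.02 of its family. Cacna1g, the T-type pore of the immature and pacemaking heart, had 1306 and 915 and was second at 19.5% ± 0.612. The other T-type genes were low, with 124 and 41 counts for Cacna1h and 5 and 6 for Cacna1i. Cacna2d1 and Cacnb2 led the auxiliary subunits with 98.4% and 81.7%.

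Potassium channel families were more mixed. For the transient outward current, which begins repolarisation, Kcnd2 had 742 and 503 counts and Kcnd3 261 and 166, a ratio of 2.84 and 3.03, while Kcna4 had 71 and 40. For the delayed rectifiers, Kcnh2 had 1910 and 1604 counts, Kcna5 1035 and 854, and Kcnq1 649 and 511. That order held in both libraries. Kcne1, the partner of Kcnq1, had 1848 and 1856 counts and held 93.7% ± 2.00 of the KCNE genes, and Kcne2 had none in either. For the inward rectifier that sets the resting potential, Kcnj2 (870 and 738 counts) and Kcnj12 (834 and 705) differed by a ratio of 1.04 and 1.05, and Kcnj12 led with 62.6% when rows were summed. Their levels were 69.6 CPM and 66.6 ± 4.14 CPM. Kcnj5 (177 ± 12.7 CPM), a pore of the acetylcholine-gated channel, and Kcnj11 (167 ± 8.65 CPM), the pore of the ATP-gated channel, differed by a ratio of 1.04 and 1.07, and Kcnj11 led with 51.0% when rows were summed. Kcnj8 was at 87.8 ± 4.73 CPM. Kcnk3, a leak channel, held 93.1% ± 0.655 of the two-pore genes.

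The ATP-gated channel's regulatory subunit Abcc9 had 8110 and 7048 counts and Abcc8 931 and 863, a ratio of 8.71 and 8.17. Abcc9 and Kcnj8 are also pericyte genes, and these counts do not divide between cell types. Of the HCN pacemaker channels, Hcn2 had 871 and 846 counts and Hcn4, the form of the sinus node and of the fetal ventricle, 150 and 116. Hcn2 led Hcn4 by 5.81 in replicate 1 and 7.29 in replicate 2. The gap junction gene Gja1, the main connexin of working ventricle, had 14810 and 9916 counts and held 91.7% ± 0.835. With all rows of a gene summed, Gja1 held 84.9%. Gja5, typical of atrium, conduction tissue and arteries, had 269 and 172. Adrb1, the main beta-adrenergic receptor of cardiomyocytes, had 305 and 296 counts, and Adrb3 had 3 and 0.

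**Figure D3:**
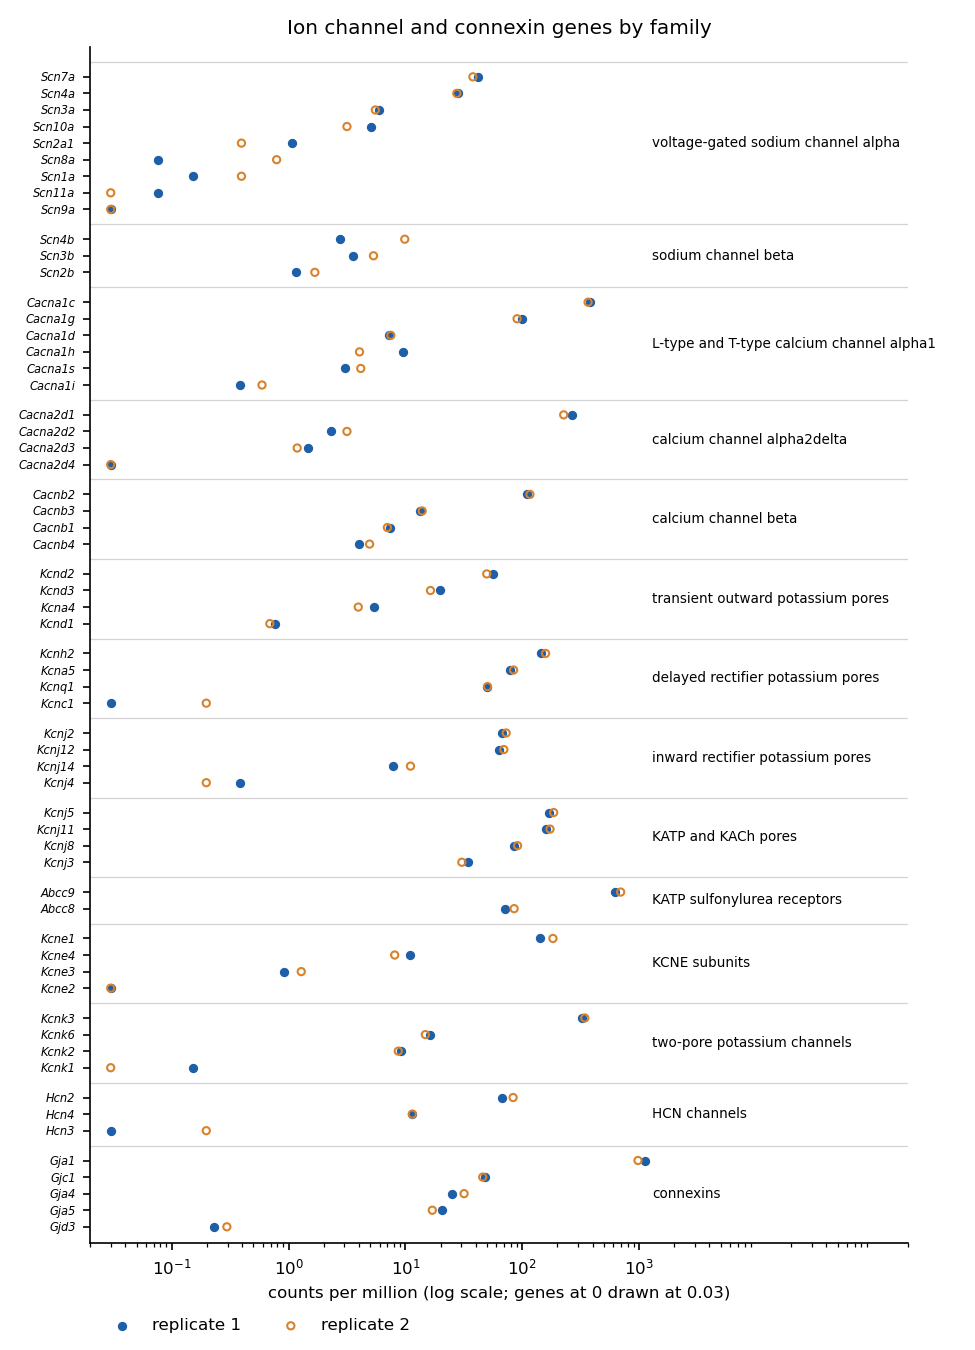
Level in CPM (log axis, genes at 0 drawn at 0.03) of the ion channel and connexin genes reported here, grouped by family, with a filled point for replicate 1 and an open point for replicate 2. Gja1 is the highest near 1055 CPM, Cacna1c and Abcc9 lead their families, and the libraries part most for genes with few counts.

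The 14 fetal and stress genes had a median of 92.7 CPM. Nppa, the atrial natriuretic peptide gene that the ventricle silences after birth, had 914 and 685 counts (68.7 ± 1.58 CPM). Nppb had 2333 counts in replicate 1 and 2401 in replicate 2 (208 ± 41.5 CPM), and Ankrd1, a stretch-responsive titin partner, 5159 and 4075. Myh7 (539 CPM), Xirp2 (438 ± 88.1 CPM) and Ankrd1 (398 CPM) were the highest of the 14 listed members, and 13 of them reached 1 CPM. Of 30 cardiac transcription factors, 29 reached 1 CPM. The highest were Hopx (487 ± 4.72 CPM), a homeodomain-only cofactor, Tbx20 (319 ± 51.9 CPM), Ppargc1a (315 ± 90.7 CPM) and Srf (216 ± 3.27 CPM), while Hand1 had 0 counts in both libraries. Gata4 had 2523 and 1925 counts and Nkx2-5 1025 and 920. The 31 cell cycle genes summed to 1042 ± 46.7 CPM, and D-type cyclins led them, with Ccnd2 at 287 ± 35.3 CPM. Mki67, a marker of cycling cells, had 607 and 535 counts, and all 31 were at 1 CPM or more. Nppb, Gata4, Nkx2-5 and Mki67 were chosen for naming after their values were seen.

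Summed marker levels placed the tissue in the ventricle. The ventricular list (Myl3, Myl2, Myh7, Irx4, Hey2) summed to 12047 CPM in replicate 1 and 11815 in replicate 2, and the 8 atrial markers to 102 and 104 (a mean of 64.8 CPM with all rows of a gene summed). Most of the latter was Nppa (68.7 CPM), which the ventricle also makes. Of the 8 atrial markers, 5 reached 1 CPM and 3 reached 10 CPM, Nppa among them. The atrial genes Sln and Bmp10 were at 0 in both libraries and Myl7 had 1 and 2 counts. The ventricular markers ranged from 5.26 to 6739 CPM. Of the 10 skeletal muscle markers, Ckm and Acta1, which the heart shares, were the 2 at 1 CPM or more, and Myh4, Myod1 and Myog were at 0. Skeletal forms outside that list were higher, such as Casq1 (53.0 CPM) and the pore Scn4a (27.9 CPM). The 6 lung and liver genes summed to 0.611 and 0.493 CPM, with Alb at 0, and 4 of the 6 adipocyte genes were at 0, among them Adipoq and Lep. In summed levels the labelled tissue and its markers therefore matched, although some atrial markers were counted.

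Markers of the main non-muscle cells were present. Fibroblast markers summed to 2806 CPM in replicate 1 and 2757 in replicate 2 over 10 genes, led by the proteoglycan gene Dcn (661 ± 9.03 CPM), Gsn (604 ± 77.6 CPM), Col1a2 (467 ± 48.8 CPM) and Col1a1 (372 ± 35.7 CPM). The 11 endothelial markers summed to 2428 and 2448 CPM, led by the lipid-binding protein gene Fabp4 (610 ± 22.4 CPM), the junction gene Cdh5 (487 ± 5.98 CPM), Pecam1 (312 ± 4.97 CPM) and the VEGF receptor Kdr (242 ± 4.80 CPM). Pericyte markers summed to 1563 and 1630 CPM, with Abcc9, Rgs5 (408 ± 21.7 CPM), Pdgfrb and Notch3 highest. Smooth muscle markers summed to 1400 and 1663 CPM, of which Acta2 alone gave 1128 ± 214, while the contractile marker Myh11 had 762 and 416 counts and Cnn1 21 and 12. Myh11 and Cnn1 were chosen for naming after their values were seen. Without Acta2 the smooth muscle sum was 403 CPM. Acta2 was higher in replicate 2 and the other 5 members were each higher in replicate 1.

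Blood cells and less common cell types were also represented. Macrophage and leukocyte markers summed to 346 and 388 CPM, led by Lyz2 (71.2 ± 12.6 CPM), the growth factor receptor Csf1r (53.0 ± 1.20 CPM), complement C1qa (596 and 553 counts) and the mannose receptor Mrc1 (49.2 ± 0.935 CPM). Lymphocyte markers summed to 6.49 and 7.99 CPM, and 3 of 8 reached 1 CPM. Erythroid genes summed to 1139 and 1417 CPM, with beta-globin Hbb-bs at 7597 and 7694 counts. Hba-a1 and Hba-a2 carried identical counts, 2600 and 2478, and cannot be told apart, although the erythroid sum holds both. Epicardial markers summed to 47.9 and 63.4 CPM, led by Aldh1a2 and Wt1, and conduction system markers to 57.7 and 61.6 CPM, led by Tbx3 (23.1 ± 2.58 CPM), with Isl1 at 0. Schwann cell and neuron markers reached 21.2 and 20.6 CPM, with Th at 0. The endocardial list summed to 160 and 149 CPM and the lymphatic list to 138 and 125 CPM, the latter led by Prox1, which cardiomyocytes also express.

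**Figure D4:**
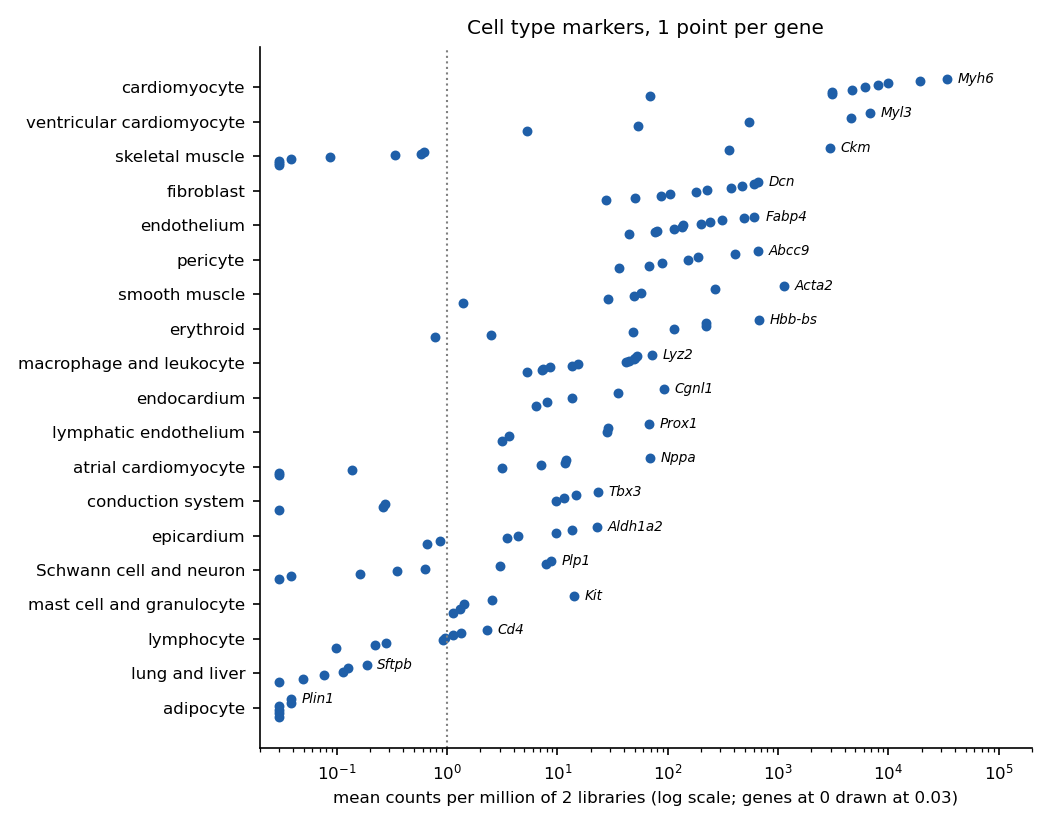
Mean level in CPM over the 2 libraries (log axis, genes at 0 drawn at 0.03) of marker genes for each cell type, with 1 point per gene and the highest gene of each list named; the dotted line marks 1 CPM. Cardiomyocyte markers reach 33620 CPM, fibroblast, endothelial and pericyte lists peak at 661, 610 and 657 CPM, and adipocyte, lung and liver markers stay below 1 CPM.

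The extracellular matrix list, 28 genes that all reached 1 CPM, summed to 17109 CPM in replicate 1 and 16313 in replicate 2. Sparc (2048 ± 111 CPM), the collagen chain Col4a1 (1825 ± 85.5 CPM) and the heparan sulfate proteoglycan Hspg2 (1716 ± 23.8 CPM) exceeded the fibrillar collagen Col3a1 (1476 ± 138 CPM) in counts, and Col4a2 stood at 1339 CPM. Col4a1 and Col4a2 are neighbours whose annotated spans overlap. Of the long non-coding RNAs, Malat1 had the most counts, with 18429 in replicate 1 and 14481 in replicate 2, followed by A930016O22Rik with 14138 and 10837, which overlaps Ckm; without stated use of strand, its reads and those of Ckm cannot be told apart. Malat1 and A930016O22Rik were chosen for naming after their values were seen.

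Some genes that every cell uses had few counts in the table. Gapdh had 27 and 26 counts and Ppia 10 and 11, beside 20017 and 16895 for the glycolytic enzyme Aldoa. The 48 cytosolic ribosomal protein genes summed to 3333 ± 19.7 CPM with a median of 30.7 CPM, ranging from Rpl4 at 417 ± 9.34 CPM to Rpl24 with 5 and 4 counts. Many such genes have processed copies elsewhere in the genome. Of 20 genes known for many copies, listed after their values were seen, 16 were at 10 CPM or more, where 40.3% of all 23334 genes were. Their median was 39.0 CPM, beside 24.7 CPM for all genes at 1 CPM or more, and their range was from 0.925 to 985 CPM. Whether reads with several matches were dropped is not given in the sources used here and was not tested, so the level of a gene with near-identical copies is uncertain. Gapdh, Ppia and Rpl24 were chosen for naming after their values were seen.

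The libraries agreed closely in rank. Over the 13226 genes at 1 CPM or more, Spearman's rho across genes was 0.991 and Pearson's r of log2 CPM 0.985; genes are not independent replicates. The median gene at 10 CPM or more differed 1.06-fold between libraries and the gene at the 99th percentile 1.62-fold. The common biological coefficient of variation estimated by edgeR was 0.0947. It was 0.0708 without 3 gene lists, the sex-linked, immediate early and interferon lists. The immediate early and interferon lists were chosen after their values were seen. Leaving out genes known to differ lowers the estimate by design, so 0.0708 is no separate measure of agreement. Among 9399 genes at 10 CPM or more, 27 were past 2-fold higher in replicate 1 (0.287%) and 21 in replicate 2 (0.223%).

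The largest differences were in sex-linked genes. The Y-linked genes Ddx3y, Eif2s3y, Uty and Kdm5d had 1617, 1141, 442 and 385 counts in replicate 1 and 2, 3, 1 and 2 counts in replicate 2. Xist, the RNA that silences an X chromosome, had 109 counts in replicate 1 and 12472 in replicate 2, and Tsix, which overlaps it on the other strand, 30 and 903. Without stated use of strand, reads of Tsix and Xist cannot be told apart. The labels used here give no sex, and every SD in this text is taken across this difference between the libraries. The other genes among the 10 largest ratios were Ndufs5 (377 and 7 counts), Rpl34 (316 and 17), Rpl34-ps1 (291 and 6) and Gdpd3 (20 and 208). Rpl34-ps1 is named as a pseudogene of Rpl34, and how reads that match both were counted is not known.

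In several gene lists, most members were higher in the same library. The immediate early, interferon and fasting lists were chosen after their values were seen. Their counts beside the share of all genes therefore describe these lists only and give no support for a joint difference. Of 20 immediate early genes at 10 CPM or more, 19 were higher in replicate 1 (7 past 2-fold), where 48.8% of all 9399 genes were. Nr4a1, a nuclear receptor induced within minutes of a stimulus, had 4577 counts in replicate 1 and 791 in replicate 2. Fos had 380 and 45, and Egr1 810 and 237. Of 21 interferon-stimulated and antigen presentation genes at that level, 21 were higher in replicate 2 (9 past 2-fold), where 51.2% of all genes were, for example Rsad2 with 237 and 452 counts and H2-Aa with 83 and 169. Of 8 macrophage and leukocyte markers at that level, 7 were higher in replicate 2, with 0 past 2-fold. Their median log2 ratio of replicate 1 over replicate 2 was -0.0843, beside -0.892 for the interferon list. The part of these markers in the interferon difference was not tested. Of 20 cell cycle genes at that level, 15 were higher in replicate 2, while 20 of 28 extracellular matrix genes were higher in replicate 1. These shifts were small, with median log2 ratios of -0.102 and 0.0524 and 0 genes past 2-fold in either list. Of 15 fasting and PPAR-responsive genes at that level, 12 were higher in replicate 1 (1 past 2-fold) and 3 in replicate 2. Among the 12 were Pdk4, the coactivator Ppargc1a (4967 and 2545 counts) and Irs2, an insulin receptor substrate, with 1716 and 415. All 5 erythroid genes at 10 CPM or more were higher in replicate 2, though Hba-a1 and Hba-a2 among them carried identical counts and are not separate observations. Sex-linked genes separated the same 2 libraries, so the part of sex, handling or any other difference in these values cannot be told apart.

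**Figure D5:**
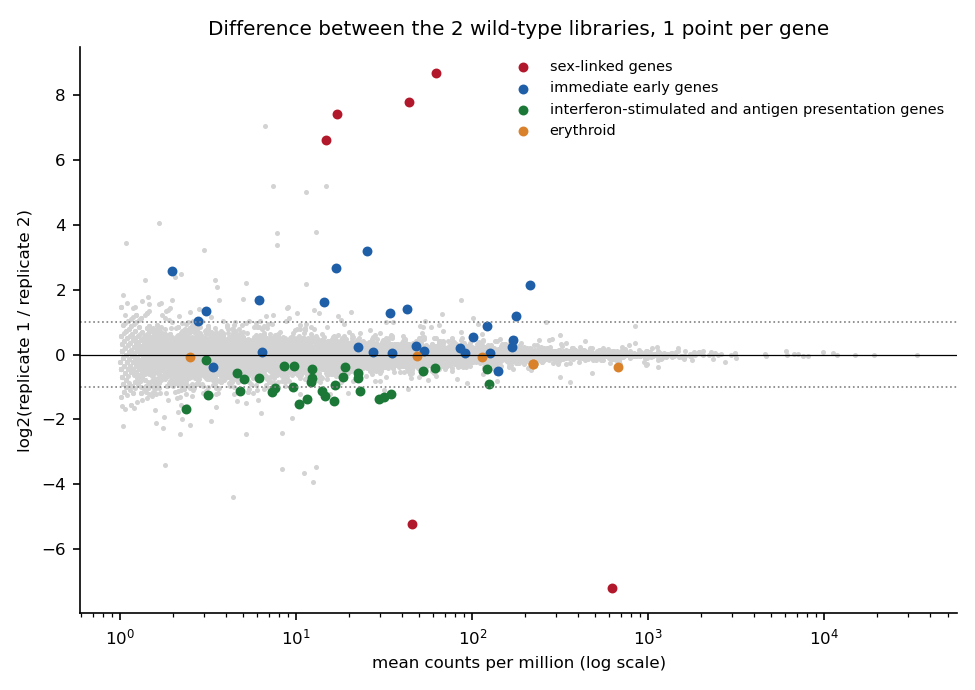
Log2 ratio of replicate 1 over replicate 2 (0.1 CPM added) against mean CPM (log axis), with 1 point per gene at 1 CPM or more and 4 gene lists in colour; dotted lines mark 2-fold. Most genes lie near 0, Ddx3y is at the top and Xist at the bottom, immediate early genes lie mostly above 0 and interferon-stimulated genes below it.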

How the data were processed

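Wild-type mRNA libraries of 2-week ventricle were analysed. Per the submitters' processing notes, the tools were Bowtie 0.12.9, SAMtools 0.1.16, cutadapt 0.9.5, CASAVA 1.8.2 and edgeR, with build mm10 and no stated role. How reads were counted, including strand and reads with several matches, is not given in the sources used here. The deposited values are the authors' raw counts for RefSeq transcripts, as the whole numbers and unequal totals show. The columns of Trbp-cKO libraries, means, ratios and p-values were not described.

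The GRCm38.p6 RefSeq table matched 30020 of 30635 accessions and named 3793 of 3903 rows with a blank symbol and 39 whose symbol had become a date. The 110 rows left unnamed (0.140% of counts in replicate 1, 0.120% in replicate 2) stayed out of totals. The row with the highest wild-type total was kept for each gene; 4293 genes had more than 1. Symbols follow the deposited table (Pkm2, Atp5b). CPM, shares, SD (n = 2) and Wilson intervals were computed in Python 3.11.15, and the dispersion and scaling factors in R 4.3.3 with edgeR 4.0.16 and DESeq2 1.42.0. The dispersion step was tested on simulated data, with the pass mark set on estimates made without the genes altered in the simulation. That test does not cover the value of 0.0947, which was estimated with all genes at 1 CPM or more.

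Members and lists were chosen with earlier results of these data known. Named are the 30 highest genes, all family members, per list the 4 highest members and those at 0, sex-linked genes and the 10 genes of at least 10 CPM with the largest ratio between libraries; others are marked. Some genes that this rule names are not reported here. A further part of this rule, the 20 highest genes per kilobase, could not be applied because no transcript lengths were used here. Alternatives were other ways of choosing or summing rows, TMM and DESeq2 scaling, other thresholds and leaving out each replicate.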

Additional observations from a re-analysis of the deposited data

How the results depend on the processing

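The number of genes at 1 CPM or more ran from 10869 to 14013 over all alternatives, thresholds of 5 and 0.5 CPM included, and scaling by TMM or DESeq2 size factors gave 13227. Leaving out each replicate in turn moved the share of the 10 highest genes between 12.95% and 13.03%, Myh6 between 97.8% and 97.9% of its family, Actc1 between 91.7% and 93.9%, Tnni3 between 99.5% and 99.7%, Slc2a4 between 96.8% and 97.1%, Hcn2 between 81.9% and 84.9%, Cacna1c between 76.0% and 77.4%, and Pdk4 between 50.3% and 66.4%. With all rows of a gene summed, the 10 highest genes held 22.3%, and 17 of the 30 highest were shared. It gave Myh6 98.9%, Tnni3 99.3% and Cacna1c 89.7% of their families, and summed marker levels of 1999 CPM for endothelium, 3304 for fibroblast, 1165 for smooth muscle, 255 for macrophages and 899 for erythroid cells. Summed rows count a read once for each transcript it was given to. Of 54 leading shares, 16 moved by over 5 percentage points. Leaving out rows with a blank symbol gave 13.1% for the 10 highest genes, and leaving out Acta2 gave 403 CPM for smooth muscle, an alternative chosen after seeing the data, as were choosing the row over all 4 mRNA columns (30 of the 30 highest genes shared) and leaving out 3 lists. With no filter on low counts rho was 0.991. Ranks and shares per kilobase were not run, since no transcript lengths were used here. No paired analysis was possible because there is 1 group and no test. Depth limits genes near 3 counts, such as Scn8a or Kcne2, whose order carries no information, and 2 libraries give an SD of low precision.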

Other observations

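Imprinted genes that promote or restrain growth were present at 2 weeks. Of 14 listed symbols, 13 genes were measured and all 13 reached 1 CPM, with a sum of 2516 ± 79.0 CPM. Gnas had 12032 counts in replicate 1 and 9300 in replicate 2, the receptor gene Igf2r 5076 and 3774, and the growth factor gene Igf2 5202 and 3463. H19, the non-coding neighbour of Igf2, had 2180 and 1212 counts, and Dlk1, a growth regulator, was lowest with 25 and 25. H19 and Dlk1 were chosen for naming after their values were seen.

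Circadian clock genes, listed after the values were seen, were measured in all 18 cases at 1 CPM or more. Tef, an output factor, was highest with 2313 and 2030 counts, and the core activator Arntl had 129 and 88 beside 398 and 408 for the output gene Dbp. Of 14 at 10 CPM or more, 5 were higher in replicate 1 and 9 in replicate 2, where 48.8% and 51.2% of all 9399 genes were. The time of day of collection is not given in the labels used here.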
